A study of Mus musculus with 6 samples.

Results

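The 10 genes described here carry glucose into cells and through glycolysis to lactate. They were chosen by name, with earlier results of these data known. They are the glucose transporter Slc2a1, the hexokinases Hk1 and Hk2, the phosphofructokinases Pfkl and Pfkp and the regulatory enzyme Pfkfb3. Aldoa, Pgk1, Eno1 and Ldha of the later steps complete the set. All 10 have a row among the 18174 genes of the deposited table, and all 10 passed the filter on low values. The libraries were made from total RNA of lung tissue of wild type male C57BL/6J mice, an inbred laboratory strain. In 1 group the mice were held at 4 °C for 6 h and in the other they stayed at room temperature, with food and water freely available. The labels name no transgene or drug in either group. Each of the 2 groups has 3 libraries, called biological replicates, but the labels do not tie them to separate mice. The p-values thus measure the spread between these libraries, part of which may be technical.

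Glycolysis turns glucose into pyruvate in the cytosol and yields ATP without oxygen, and lactate dehydrogenase regenerates the NAD+ that the pathway uses up. Hexokinase, phosphofructokinase and pyruvate kinase catalyse its irreversible steps, and phosphofructokinase is switched on by fructose 2,6-bisphosphate, which the PFKFB enzymes make and break down. Many genes of the pathway are known targets of the hypoxia-inducible factors and of the E-box factor Myc. Red cells have no mitochondria and depend on glycolysis for ATP, and neutrophils rely on it heavily.

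Values are scaled RPKM, that is reads per kilobase of gene span, introns included, and per M (mega) reads, divided by a composition factor for each library. A long intron therefore lowers the level of its gene. Depth, read back from the value of a single read in each library, was 39.7 to 48.7 M at room temperature and 32.7 to 35.1 M in cold. Defining markers of lung were present in all 6 libraries, but some in very different amounts. Sftpc, a surfactant protein gene of alveolar type 2 cells, stood at 87.4, 47.5 and 647 scaled RPKM in room temperature replicates 1, 2 and 3 and at 2130 to 2850 in cold. Sftpb, another marker of these cells, stood at 87.4 to 129 at room temperature and at 78.0 to 123 in cold. By the test described below, 6 of 8 markers of these cells were higher in cold. Scgb1a1, the secretory protein gene of club cells in the airway, stood at 11900 to 14500 at room temperature and at 3260 to 4010 in cold. On the first principal component, which held 90.2% of the variance, room temperature replicate 3 lay at −44.0, between replicates 1 and 2 (−81.3 and −94.2) and the cold libraries (69.3 to 77.9). In bulk tissue fewer cells of a type and less RNA per cell cannot be told apart, and this holds for every value below. The sample titles name only lung tissue. A difference between the groups in the part of the tissue taken cannot be told apart from an effect of cold. It was not tested, so rose and fell below describe only the difference between these libraries.

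Most of the 10 genes had lower RNA levels in cold, and 1 was far higher. Slc2a1, Hk1, Pfkl, Aldoa, Pgk1, Eno1 and Ldha fell to between 28.1% and 54.0% of their room temperature mean, Pfkfb3 rose 8.23-fold, and Hk2 and Pfkp were not called. A gene was called when its limma p, adjusted by Benjamini-Hochberg across the 15238 genes tested, was under 0.05, and by this rule 7 of the 10 genes were lower and 1 higher. Of all genes tested 70.5% were called, 35.0% lower and 35.5% higher, so a call by itself is common in these data. Counts in the lists below, unless under the authors' scaling, are to be read beside these shares. Counts from limma under the authors' scaling, by library totals only, are to be read beside 46.2% of all genes tested higher and 24.7% lower. The median log2 change of all genes tested under that scaling was 0.29. The libraries of both groups did not overlap in 9 of the 10 genes (7 lower, 2 higher in cold), beside 76.2% of all genes tested (37.8% lower, 38.4% higher). The median log2 change of the 10 genes was −1.28, against 0.00 for all genes tested. As a share of all reads that fell in listed genes, the 10 genes together made up 0.169% ± 0.00336 (SD, n = 3) in the room temperature libraries. In the cold libraries they made up 0.107% ± 0.0029 (SD, n = 3).

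**Figure D1:**
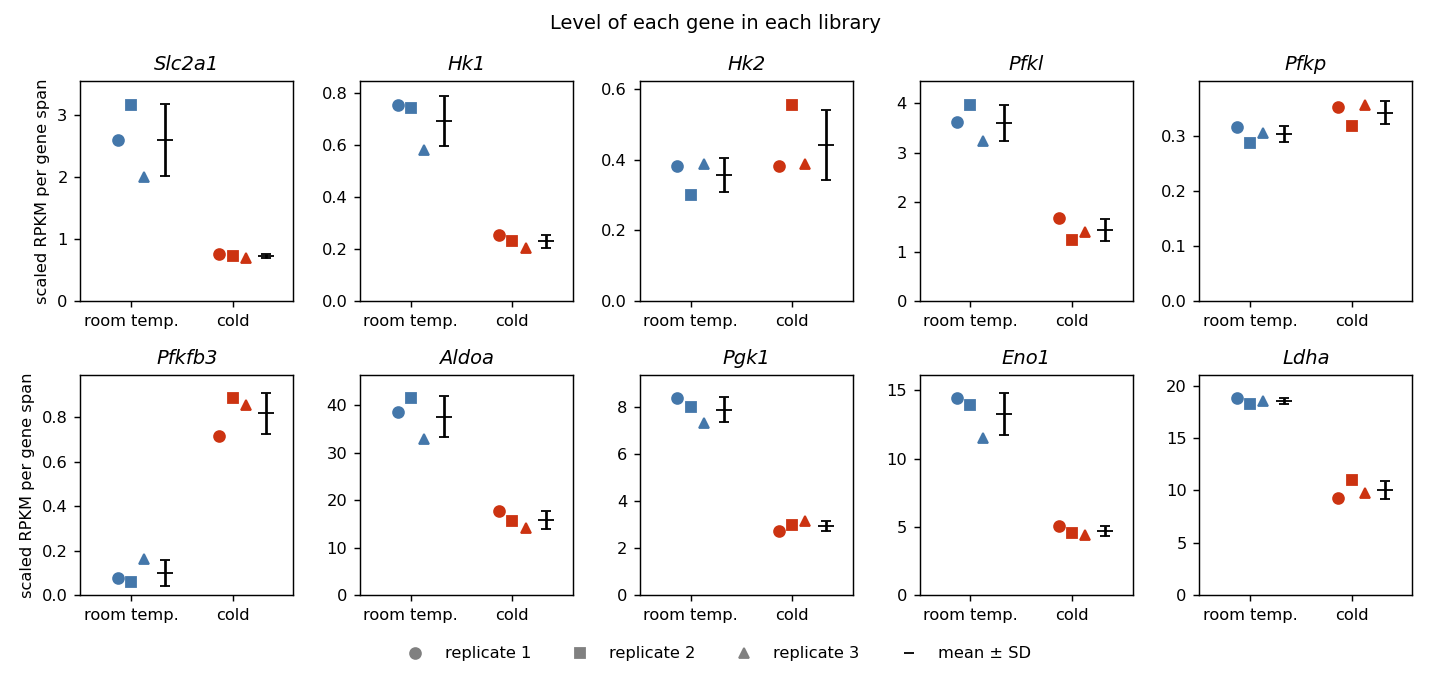
Scaled RPKM per gene span (vertical axis, linear and from 0, a separate scale for each gene) of the 10 genes in the 3 room temperature libraries (blue) and the 3 cold libraries (red), with marker shapes for replicates 1 to 3 and black bars for the mean ± SD. The groups are apart in 9 genes, 7 of them lower and 2 higher in cold, and overlap in Hk2.

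Slc2a1 encodes GLUT1, the basal glucose transporter that supplies many cell types (ENSMUSG00000028645, chromosome 4, 119108711 to 119137983, plus strand; coordinates here and below are those of GENCODE M21 on GRCm38, the assembly also called mm10, and each covers the whole gene with its introns). It stood at 2.60, 3.17 and 2.01 scaled RPKM in room temperature replicates 1, 2 and 3 and at 0.760, 0.731 and 0.693 in cold replicates 1, 2 and 3. Every cold library lay below every room temperature library, and the room temperature libraries were the more spread out. The mean went from 2.59 ± 0.581 to 0.728 ± 0.0333 (SD, n = 3 per group here and below), a log2 change of −1.78 ± 0.16 (SE; adjusted p = 8.7e-05).

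The hexokinases trap glucose in the cell as glucose 6-phosphate. Hk1, the widely expressed form that binds to mitochondria (ENSMUSG00000037012, chromosome 10, 62268855 to 62379908, minus strand), stood at 0.754, 0.741 and 0.579 scaled RPKM at room temperature and at 0.253, 0.231 and 0.204 in cold. The groups did not overlap, and the lowest room temperature value was that of replicate 3. The change was −1.57 ± 0.14 on the log2 scale (adjusted p = 7.4e-05). Hk2, the inducible form of muscle and fat (ENSMUSG00000000628, chromosome 6, 82725025 to 82774454, minus strand), stood at 0.382, 0.30 and 0.387 at room temperature and at 0.381, 0.555 and 0.388 in cold. Its groups overlapped, since only cold replicate 2 stood clearly above the room temperature libraries. The change of 0.29 ± 0.17 did not pass the test (adjusted p = 0.17), and its 95% interval runs from −0.12 to 0.69. In limma under the authors' own scaling, which uses library totals only, Hk2 was called higher (log2 change 0.61, adjusted p = 0.020). Its q value as deposited by the authors was 0.73.

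Phosphofructokinase commits the sugar to glycolysis. Pfkl, the subunit named for liver and found in many tissues (ENSMUSG00000020277, chromosome 10, 77986947 to 78010083, minus strand), stood at 3.61, 3.97 and 3.24 scaled RPKM at room temperature and at 1.68, 1.24 and 1.39 in cold. Every cold library lay below every room temperature library, and the log2 change was −1.32 ± 0.13 (adjusted p = 0.00013). Pfkp, the platelet subunit (ENSMUSG00000021196, chromosome 13, 6579768 to 6648777, minus strand), stood at 0.316, 0.287 and 0.305 at room temperature and at 0.351, 0.317 and 0.356 in cold. Here the lowest cold library was barely above the highest room temperature library. Its log2 change of 0.17 ± 0.10 did not pass the test (adjusted p = 0.15, 95% interval −0.05 to 0.39). In limma under the authors' scaling Pfkp was called higher (0.49, adjusted p = 0.0044), while its q value as deposited by the authors was 0.86. The opposite-strand gene Pitrm1 overlaps 1.08% of the Pfkp span, and whether the counting used strand is not known. In M21, genes without a row of their own overlap Slc2a1 (3), Hk1 (1), Hk2 (1) and Pfkfb3 (2, of which 1 on the opposite strand). How many reads these genes hold is not known.

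Pfkfb3 makes fructose 2,6-bisphosphate, the activator of phosphofructokinase, with little of the reverse activity, and is known as an inducible gene of endothelium and activated immune cells (ENSMUSG00000026773, chromosome 2, 11471433 to 11554077, minus strand). It was the only one of the 10 genes called higher. It stood at 0.0755, 0.0584 and 0.164 scaled RPKM at room temperature and at 0.713, 0.884 and 0.853 in cold. These levels correspond to 217, 201 and 520 reads against 2173, 2671 and 2768. Every cold library was more than 4 times as high as the highest room temperature library, replicate 3, and that library was itself above the other two. The mean went from 0.0992 ± 0.0565 to 0.817 ± 0.0911, a log2 change of 3.09 ± 0.34 (adjusted p = 0.00030). Without room temperature replicate 3 the log2 change was 3.47 (adjusted p = 2.7e-07).

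The later enzymes of the set all fell, Ldha the least. Aldoa, the aldolase that splits fructose 1,6-bisphosphate (ENSMUSG00000030695, chromosome 7, 126795234 to 126800751, minus strand), stood at 38.5, 41.4 and 32.8 scaled RPKM at room temperature and at 17.8, 15.5 and 14.1 in cold. Its groups were well apart, with replicate 3 again the lowest at room temperature, and the log2 change was −1.24 ± 0.13 (adjusted p = 0.00014). The opposite-strand gene Fam57b overlaps 55.9% of the Aldoa span and stood at 2.50 to 2.88 scaled RPKM at room temperature and at 0.926 to 1.15 in cold, so reads of both cannot be told apart without strand. Pgk1, the kinase of the first ATP-yielding step (ENSMUSG00000062070, chromosome X, 106187100 to 106203699, plus strand), stood at 8.38, 8.0 and 7.32 at room temperature and at 2.74, 2.98 and 3.16 in cold. Both groups were tight and apart, and the log2 change was −1.41 ± 0.10 (adjusted p = 5.4e-05).

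Eno1, the widely expressed enolase that makes phosphoenolpyruvate (ENSMUSG00000063524, chromosome 4, 150236721 to 150248879, plus strand), stood at 14.4, 13.9 and 11.5 scaled RPKM at room temperature and at 5.07, 4.58 and 4.38 in cold. No cold library came near the room temperature range, and the log2 change was −1.49 ± 0.12 (adjusted p = 5.8e-05). Ldha, the lactate dehydrogenase subunit that favours lactate production (ENSMUSG00000063229, chromosome 7, 46841475 to 46855627, plus strand), stood at 18.8, 18.3 and 18.6 at room temperature and at 9.28, 11 and 9.79 in cold. It was the steadiest of the 10 genes at room temperature relative to its mean, and its fall was the smallest of the 7 genes called lower, at −0.89 ± 0.10 (adjusted p = 0.00017). Reads of Pgk1, Eno1 and Ldha are less certain than those of the other members, since M21 holds 2 pseudogenes for each that are at least 95% identical to it over at least 500 bases, and none (0) for the other 7 genes. Of these copies only Pgk1-rs7 has a row of its own in the deposited table. Only transcripts typed as pseudogenes were searched, so copies of any other type would not have been found.

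The order of the levels was nearly the same in both groups apart from Pfkfb3 and Hk1. Compared between genes per kilobase of exon and per M reads, with the same composition factors, Ldha led at 79.3 ± 1.13 at room temperature, followed by Aldoa (71.1 ± 8.30), which differed from it by less than the SD of Aldoa, and by Pgk1 (58.4 ± 3.98). Eno1 (30.0 ± 3.42), Slc2a1 (21.6 ± 4.85), Pfkl (12.5 ± 1.26) and Hk1 (9.0 ± 1.27) held the middle. Hk2 (2.95 ± 0.405), Pfkp (1.56 ± 0.0741) and Pfkfb3 (1.08 ± 0.618) were the lowest, and the last 2 of these differed by less than 1 SD of Pfkfb3. In cold Pfkfb3, at 8.93 ± 0.995, stood below Eno1 (10.6 ± 0.803) and above Slc2a1 (6.08 ± 0.278) and Pfkl (4.98 ± 0.766), and Hk2 (3.65 ± 0.813) stood above Hk1 (2.99 ± 0.321) by less than its SD. Because the deposited counts cover introns, a level per exon kilobase can hold intron reads.

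Most of the remaining enzymes of glycolysis were lower too. Of 18 genes 16 were tested, and of these 12 fell and 2 rose, with a median log2 change of −0.99. The enzymes that act in most tissues fell together: the isomerases Gpi1 (−1.03) and Tpi1 (−1.40), the dehydrogenase Gapdh (−1.51), the mutase Pgam1 (−1.43) and the pyruvate kinase Pkm (−0.96), each with an SE of 0.09 to 0.11 and adjusted p between 5.1e-05 and 0.00011. Gapdh, often used as a reference gene, went from 26.5 ± 2.05 to 9.22 ± 0.481 scaled RPKM. Ldhb, the lactate dehydrogenase subunit that favours pyruvate, went from 13 ± 0.359 to 3.96 ± 0.548 (−1.71 ± 0.11, adjusted p = 5.2e-05).

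Enzymes known from single tissues fell as well, from low or uneven levels. Pklr, the pyruvate kinase of liver and red cells, went from 0.507 ± 0.23 to 0.0411 ± 0.0123 scaled RPKM, and Aldoc, the aldolase of brain, from 1.75 ± 0.928 to 0.389 ± 0.0669. The muscle mutase Pgam2 went from 7.29 ± 3.97 to 1.25 ± 0.135. Pfkm, the muscle phosphofructokinase subunit (−0.73), Bpgm, which makes the 2,3-bisphosphoglycerate of red cells (−0.44), and Ldhd, which acts on D-lactate (−0.44), also passed the test. Under the authors' scaling these 3 did not pass (adjusted p = 0.21, 0.43 and 0.42), and 9 of the 16 genes fell and 2 rose. Each also failed to pass when certain single libraries were left out: Pfkm without room temperature replicate 1 or any cold library (adjusted p = 0.067 to 0.094), Bpgm without room temperature replicate 1 or 2 or cold replicate 1 or 3 (0.059 to 0.11), and Ldhd without room temperature replicate 2 or any cold library (0.051 to 0.10). The 2 that rose were the hexokinases Hk3, a form of blood leukocytes, from 0.0826 ± 0.011 to 0.187 ± 0.0723 (0.89 ± 0.25, adjusted p = 0.015), and Hkdc1, from 0.0101 ± 0.00766 to 0.152 ± 0.034 (2.88 ± 0.27, adjusted p = 9.6e-05). Without room temperature replicate 1 Hk3 had an adjusted p of 0.055. The neuronal enolase Eno2 (0.26, 95% interval −0.38 to 0.89) and the muscle enolase Eno3 (−0.64, −1.56 to 0.29) were not called with all libraries, and Eno3 was called lower without room temperature replicate 2 (−1.10, adjusted p = 0.00065). Eno1b was below the filter, and Pgk2 was not analysed here.

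**Figure D2:**
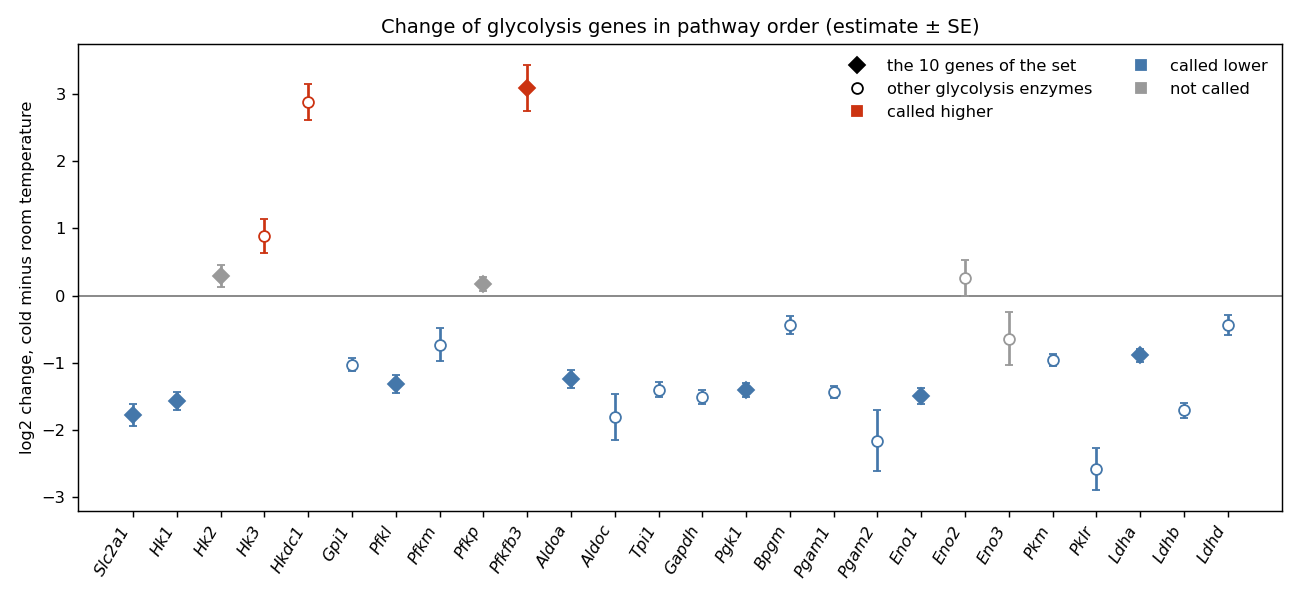
Log2 change in cold minus room temperature (vertical axis, limma estimate ± SE from 3 libraries per group) of the 10 genes (diamonds) and of the 16 tested genes among the other glycolysis enzymes (open circles), in the order of the pathway from left to right, coloured by whether the gene was called higher, called lower or not called. Between Gpi1 and Pkm the ubiquitous enzymes lie between −0.96 and −1.51, while Pfkfb3 stands at 3.09 and Hkdc1 at 2.88.

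Within families of related enzymes the mixture shifted. Among Hk1, Hk2, Hk3 and Hkdc1, in reads per exon kilobase, Hk1 held 72.5% ± 4.89 of the sum at room temperature and 35.2% ± 5.42 in cold, and Hk2 held 24.0% ± 4.39 and 42.4% ± 3.35. Hkdc1 went from 0.657% ± 0.551 to 13.5% ± 1.09, while the sum of the 4 genes was 12.4 ± 1.07 and 8.59 ± 1.43 reads per exon kilobase and M. Hk1 had the largest mean share at room temperature and Hk2 in cold, although in cold replicate 1 Hk1 (40.4%) was still above Hk2 (38.6%). Among the phosphofructokinases Pfkp went from 7.78% ± 0.182 to 17.4% ± 1.08, and Pfkl from 62.6% ± 8.96 to 48.9% ± 2.64. Pfkfb3 went from 18.7% ± 6.56 of its family to 43.7% ± 2.01, although Pfkfb2 and Pfkfb4 rose too. Of the pair Ldha and Ldhb, Ldha went from 35.1% ± 0.566 to 49.0% ± 1.40, both having fallen.

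**Figure D3:**
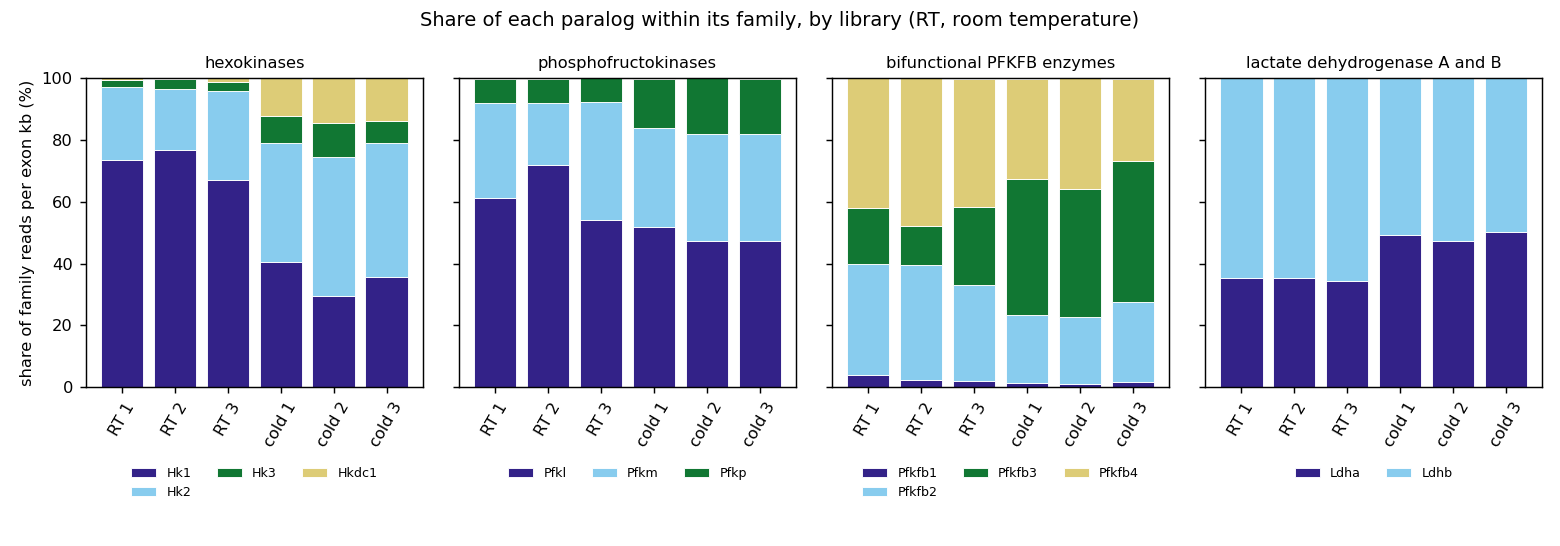
Share of each paralog in the reads per exon kilobase of its family (vertical axis, percent, stacked to the whole) in each of the 6 libraries for the hexokinases Hk1, Hk2, Hk3 and Hkdc1, the phosphofructokinases, the PFKFB enzymes and lactate dehydrogenase A and B. Hk2, Pfkp, Pfkfb3 and Ldha take a larger share in every cold library than in any room temperature library.

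A ratio of 2 genes within a library does not depend on how libraries are scaled, and 7 such ratios of read numbers were computed. The ratio of Hk2 to Hk1 was 0.226, 0.180 and 0.298 at room temperature and 0.670, 1.07 and 0.847 in cold, a 3.69-fold difference. For Pfkp to Pfkl it was 0.216 to 0.281 against 0.624 to 0.766 (2.84-fold), for Ldha to Ldhb 1.11 to 1.16 against 1.91 to 2.13 (1.78-fold), and for Pfkfb3 to Pfkfb2 0.344 to 0.853 against 1.83 to 2.07 (3.65-fold). The ratio of Slc2a1 to Slc2a3, the high-affinity transporter of neurons and leukocytes, fell from between 8.81 and 26.2 to between 1.77 and 3.17. The libraries of both groups did not overlap in these 5 ratios, and each had a two-sided exact permutation p of 0.10, the smallest that 3 against 3 libraries allow (0.14 adjusted over the 7 ratios). This test therefore cannot bring such a ratio past 0.05. Pfkm to Pfkl (0.140 to 0.350 against 0.308 to 0.368, exact p = 0.20) and Pgk1 to Aldoa (0.582 to 0.672 against 0.464 to 0.672, exact p = 0.50) overlapped between the groups.

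Of 4 other genes for enzymes that set the level of fructose 2,6-bisphosphate, 3 rose and none (0) was called lower. Tigar, a phosphatase of this compound, was not called and is named after its values were seen. It stood at 0.345, 0.367 and 0.468 scaled RPKM at room temperature and at 0.301, 0.343 and 0.331 in cold. Its groups were thus barely apart with cold lower, as in 37.8% of all genes tested. In deposited RPKM, without the composition factors, they overlapped (0.301 to 0.446 at room temperature, 0.339 to 0.383 in cold). Pfkfb2, known from heart and kidney, went from 0.347 ± 0.0509 to 0.861 ± 0.132 scaled RPKM (log2 change 1.28 ± 0.15, adjusted p = 0.00025), and Pfkfb4, known from testis and hypoxic cells, from 0.293 ± 0.0627 to 0.789 ± 0.189 (1.39 ± 0.21, adjusted p = 0.00071). Pfkfb1, the liver form, stood at only 0.0101 ± 0.00227 and 0.0199 ± 0.00519 (0.59, adjusted p = 0.025). It did not pass without room temperature replicate 2 (0.070), without room temperature replicate 3 (0.050) or without cold replicate 3 (0.088).

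Of 11 other glucose transporters 10 were tested. Of these 1 rose and 5 fell (median −0.44), beside 35.5% and 35.0% of all genes tested, and 4 were not called. Under the authors' scaling 2 rose and 4 fell (median −0.14), beside 46.2% and 24.7% of all genes tested (median 0.29). Slc2a4, which encodes the insulin-responsive GLUT4 of muscle and fat, went from 2.33 ± 0.449 to 0.658 ± 0.0458 scaled RPKM, Slc2a12 from 0.634 ± 0.157 to 0.170 ± 0.0139, and Slc5a1, the sodium-coupled glucose transporter SGLT1, from 0.152 ± 0.0474 to 0.0331 ± 0.00722. Slc2a3 was not called (0.58, 95% interval −0.17 to 1.33), and was called under the authors' scaling (0.88, adjusted p = 0.047). Of 8 lactate and pyruvate carrier genes 7 were tested, and none (0) rose and 6 fell (median −1.27). Slc16a3, the lactate exporter MCT4 of glycolytic cells, went from 5.22 ± 1.03 to 1.04 ± 0.191 (−2.28 ± 0.18, adjusted p = 6.6e-05), and Bsg, basigin, the chaperone of these carriers, from 70.7 ± 6.49 to 27.6 ± 2.59.

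Of the side branches, pentose phosphate and gluconeogenesis genes were mostly lower and glycogen genes were mixed. Of 7 pentose phosphate genes none (0) rose and 6 fell (median −0.96), or 1 rose and 4 fell under the authors' scaling, with transketolase, Tkt, at 6.28 ± 1.38 against 1.62 ± 0.17 scaled RPKM and Pgd, a dehydrogenase that makes NADPH, at 9.44 ± 1.53 against 3.75 ± 0.527. Of 7 gluconeogenesis genes 5 were tested and all 5 fell (median −1.80), among them Pck1, the cytosolic carboxykinase, from 0.781 ± 0.201 to 0.0669 ± 0.0217, and Pcx, pyruvate carboxylase, from 0.764 ± 0.0942 to 0.218 ± 0.0407. Only 3 of these passed when any library but room temperature replicate 3 was left out, and 3 under the authors' scaling. Of 11 glycogen genes 10 were tested, and 2 rose and 5 fell (median −0.44), beside 35.5% and 35.0% of all genes tested. Under the authors' scaling 2 rose and 3 fell (median −0.11), beside 46.2% and 24.7% of all genes tested (median 0.29). Pygb, the brain form of glycogen phosphorylase, went from 2.79 ± 0.316 to 0.752 ± 0.0712, and Phka1, a regulatory subunit of phosphorylase kinase, rose from 0.0719 ± 0.0116 to 0.169 ± 0.00973.

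Genes of the hypoxia-inducible factor system moved both ways, as genes of the whole table did, and the targets outside glycolysis mostly up. Of 10 genes of the factors and their oxygen sensors 5 rose and 3 fell (median 0.26), beside 35.5% and 35.0% of all genes tested. Hif3a rose from 0.0467 ± 0.0226 to 0.232 ± 0.0258 scaled RPKM and Arnt, the partner subunit, from 0.445 ± 0.0296 to 0.789 ± 0.11, while Egln3, a prolyl hydroxylase that is itself a target of the factors, fell from 0.119 ± 0.00828 to 0.0196 ± 0.00703. Of 14 targets outside glycolysis 9 rose and 2 fell (median 0.76). The prolyl hydroxylase of collagen P4ha2 went from 0.708 ± 0.0456 to 1.18 ± 0.065, the histone demethylase Kdm3a from 0.415 ± 0.0255 to 0.772 ± 0.0415 and the oxidase Ero1l from 0.229 ± 0.0563 to 0.570 ± 0.0658. Of these targets 0 fell under the authors' scaling, and 1 fell when room temperature replicate 1 or 2 or any cold library was left out. Of 6 genes of the glucose-sensing factors and their targets 3 rose and 1 fell, beside 35.5% and 35.0% of all genes tested. Mlxip rose from 0.581 ± 0.0701 to 1.01 ± 0.0451 scaled RPKM. Of that list's calls Mlx lost its own under 6 of the alternatives and Arrdc4 under 3.

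**Figure D4:**
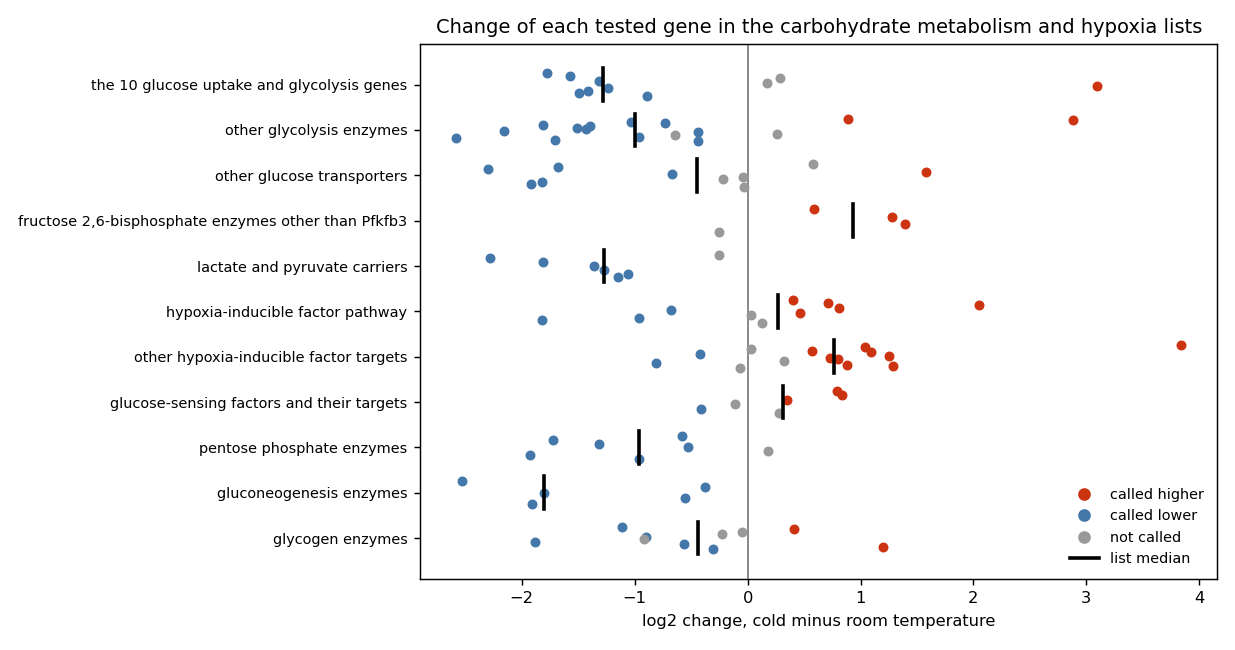
Log2 change in cold minus room temperature (horizontal axis) of every tested gene, 1 point each, in the set of 10 genes and in 10 further lists of carbohydrate metabolism and of the hypoxia-inducible factors, with the list median as a black bar and colour for the call. The medians of glycolysis, carriers, pentose phosphate and gluconeogenesis genes lie between −0.96 and −1.80, and those of the PFKFB, hypoxia factor and target lists between 0.26 and 0.94.

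The core of the hypoxia response element, ACGTG, was searched on both strands in the 250 bases before each RefSeq start site (GRCm38.p6). It was present in a window of 6 of the 10 genes and of 23.6% of the 11419 tested genes with a window. By window, it was present in 8 of the 17 windows of the 10 genes, where starts 2 and 3 of Aldoa share the same match. The share was 20.2% of the 14529 windows of tested genes and 16.6% of all 32851 windows. The 6 genes are Slc2a1, Pgk1, Ldha and Aldoa, which fell, Pfkfb3, which rose, and Hk2, which was not called. No match was present in the windows of Hk1, Pfkl, Pfkp and Eno1, which says only that these letters are not there. The stretches with the matches are printed for 5 genes, to set genes of opposite direction side by side, with the match in capitals on whichever strand it lies (CACGT is ACGTG read from the other strand, and CACGTG holds both, overlapping). They run 5′ to 3′ along the strand of the gene.
Pfkfb3, start 2, chr2:11502123-11502158, minus strand: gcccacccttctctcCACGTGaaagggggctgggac
Pgk1, chrX:106186935-106186988, plus strand: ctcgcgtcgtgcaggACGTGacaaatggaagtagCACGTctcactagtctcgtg
Ldha, start 1, chr7:46845644-46845789, plus strand: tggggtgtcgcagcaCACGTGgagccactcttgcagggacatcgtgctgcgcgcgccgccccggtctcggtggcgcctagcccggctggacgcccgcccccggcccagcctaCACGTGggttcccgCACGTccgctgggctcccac
Aldoa, starts 2 and 3, chr7:126799361-126799395, minus strand: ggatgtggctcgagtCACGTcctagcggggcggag
Hk2, chr6:82774487-82774695, minus strand: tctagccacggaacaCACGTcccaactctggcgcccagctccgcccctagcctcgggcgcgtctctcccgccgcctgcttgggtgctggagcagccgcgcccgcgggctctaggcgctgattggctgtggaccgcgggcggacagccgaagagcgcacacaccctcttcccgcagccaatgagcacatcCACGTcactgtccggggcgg
The 2 matches in Pgk1 lie 150 and 131 bases before its start, and those in Ldha, 5 in all when the overlapping pairs are counted singly, lie 145 to 34 bases before it. Matches stand before genes whose levels moved in opposite directions. The form CACGTG, in the printed stretches of Pfkfb3 and Ldha, is also an E-box. A match is a description of the sequence and not a bound site.

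Markers of several cell types moved in the same libraries as the 10 genes. Of 8 club cell markers all 8 fell (summed level 18800 to 25800 scaled RPKM at room temperature, 4710 to 5430 in cold), and of 8 ciliated cell markers all 8 fell (293 to 453 against 56.2 to 87.3). Of 8 smooth muscle markers 7 fell (212 to 263 against 34.0 to 55.5), of 8 heart muscle markers 7 fell (99.2 to 355 against 22 to 50.7), and of 7 tested fat cell markers 6 fell (41.1 to 97.0 against 5.57 to 16.7). These lists were lower together with Slc2a1, Slc2a4, Hk1 and the later enzymes. Of 10 endothelial markers all 10 rose (3.64 to 47.6 against 236 to 257), of 7 tested neutrophil markers all 7 rose (2.28 to 3.70 against 34.7 to 79.7), and of 7 red cell markers all 7 rose (40.7 to 230 against 709 to 899). These were higher together with Pfkfb3, Hk3 and Hkdc1. Pklr (log2 change −2.58), described above for liver and red cells, and Bpgm (−0.44), described for red cells, were lower while the red cell markers rose. Bpgm did not pass in limma under the authors' scaling (adjusted p = 0.43). Listed at 0 in at least 1 library were Myh2 and Myh4 of skeletal muscle, Mmp8 and Ly6g of neutrophils, Ear1 of alveolar macrophages and Ucp1 of fat. The part of these cell types in the changes of the 10 genes was not tested.

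Other marker lists moved as well. Alveolar type 2 (6 of 8 higher, 0 lower), alveolar type 1 (6 higher and 1 lower of 8) and alveolar macrophage markers (7 higher and 1 lower of 8) were mostly higher. So were T and natural killer cell markers (7 of 7 tested) and B cell markers (6 of 7 tested). Fibroblast markers split into 3 higher and 3 lower of 8, skeletal muscle markers were lower in 3 of 4 tested, and none (0) of 8 platelet markers was called. With the composition factors used Pfkp was not called either, and whether its level follows platelet content was not tested.

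Room temperature replicate 3 was the room temperature library nearest to the cold mean in 7 of the 8 called genes, Ldha being the exception, and in 71.7% of all genes called. It also held the most endothelial signal at room temperature, 47.6 against 8.0 and 3.64 scaled RPKM in replicates 1 and 2. Without it the same numbers of the 10 genes were called, 7 lower and 1 higher, against 36% and 36.2% of all genes tested. Genes of long span were somewhat higher in cold over the whole table, with a median log2 change of −0.27 for spans up to 9.88 kb and 0.20 for spans above 57.2 kb. Among the 500 tested genes nearest in span, the median was 0.32 for Hk1 and 0.22 for Pfkfb3, which changed by −1.57 and 3.09, and −0.15 for Aldoa, which changed by −1.24. For Hk2 and Pfkp it was 0.24 and 0.25, beside their own 0.29 and 0.17. Of the 500 neighbours of Hk1 27.8% were called lower and 47.0% higher, of those of Pfkfb3 27.8% and 43.2%, and of those of Aldoa 40.4% and 26.8%.

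The authors' deposited table calls fewer of the 10 genes. At a deposited q value under 0.05 it has Pfkfb3 higher (log2 fold change 3.32) and Slc2a1, Hk1, Pgk1 and Eno1 lower (−1.49, −1.26, −1.09 and −1.17), beside 12.7% of all rows higher and 12% lower. Pfkl, Aldoa and Ldha have deposited q values of 0.056, 0.076 and 0.24 in the authors' deposited table, and Hk2 and Pfkp of 0.73 and 0.86. Under the authors' scaling in limma, with the median of all genes at 0.29 in place of 0.00, 3 of the 10 genes were called higher and 7 lower, beside 46.2% and 24.7% of all genes.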

How the data were processed

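RNA from lung of 6 libraries, 3 per group, was sequenced. Per the labels' protocols, libraries were prepared with NEBNext Ultra II reagents. The genome build was mm10, per the submitters' processing notes. No aligner, counter or annotation is given in the sources used here. The authors deposited 1 RPKM value per gene and library, rounded to 3 decimals, in a table named as raw counts. Value times gene span in GENCODE M21 fell on whole multiples of 1 step per library (phase coherence 0.792 to 0.839, where 1 means exactly whole, against 0.208 to 0.281 with exon length), so the values are per span, and the step gave the depth. In genes under 5 kb with up to 20 reads, 83.1% to 86.1% of recovered read numbers were whole within 0.1. Whether reads or fragments were counted, and whether strand was used, is not known. In all 18174 rows the deposited log2 fold change equals that between the group means of the deposited values after 0.001 was added to each mean, and the q values the authors deposited equal their p-values after Benjamini-Hochberg adjustment. The test behind these p-values is unknown. Columns of further samples number 0. The 92 rows without a span in M21 were left out, and 51 rows with a repeated symbol were labelled by gene ID.

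RPM (RPKM times span in kilobases) was scaled in each library by the trimmed mean of M values, unweighted (the outer 30% of the ratios and 5% of the mean levels left out on either side). limma 3.58.1 in R 4.3.3 (lmFit, eBayes with trend and robust options) took log2(scaled RPM + 0.5) as input and group as the only term. This scale understates changes of genes near 0.5 RPM. A gene was tested, as 15238 were, if 3 or more libraries reached the RPM that 10 reads give at median depth and the 6 summed to that of 15. Tests were two-sided. The procedure was tested on simulated counts with known changes in few genes. That setting cannot show how the scaling and the calls behave where most genes are called, as here. Ratios were tested in scipy 1.17.1, and pseudogene copies were found with blastn 2.17.0 against the pseudogene transcripts of M21.

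Some genes of the lists are not reported here, and counts, medians and shares leave them out. The members, the gene lists and the tests were chosen with earlier results of these data known. Named genes are the 10 members, the other glycolysis enzymes, up to 4 called genes of smallest p from each further list (not all are printed), and Slc2a3, Pfkfb2 and Ldhb as partners in ratios. Mlx and Arrdc4 are among those 4, and marker genes at 0, overlapping genes and Pgk1-rs7 are named outside the rule. Libraries of a group differed beyond sampling noise (chi-square of read numbers 15.4 to 84.9 per degree of freedom). Replicates carry the numbers 1 to 3 in both groups. Deviations from the group means correlated at 0.115, 0.149 and 0.155 between same-numbered libraries, all over 0.1, the limit for treating numbers as pairs, and 1 of the 14 alternatives adds this number as a block.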

Additional observations from a re-analysis of the deposited data

How the results depend on the processing

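Over the 14 alternatives for each of the 10 genes, no gene changed direction, and Hk2 and Pfkp were the genes whose call changed. Under the authors' scaling by library totals both were called higher (log2 change 0.61 and 0.49), which brought the genes called higher from 1 to 3, and that scaling puts the median of all genes at 0.29 in place of 0.00. The genes called lower stayed at 7 in every alternative. With the replicate number as a block 1 gene was called higher and 7 lower, the log2 change of Pfkfb3 was 3.09 (adjusted p = 0.00085), and no call among the 10 genes changed. The log2 change of Pfkfb3 ranged from 2.78 to 3.47, that of Slc2a1 from −1.98 to −1.46 and that of Ldha from −0.93 to −0.56. Leaving out a library kept the direction of each of the 7 ratios. Pfkp and Hk2, whose intervals span 0, were not called at this number of libraries with the composition factors used.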
